A study of Mus musculus with 19 samples.

Results

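Lysosomal genes were compared between mouse alveolar type 2 (AT2) organoids and lung adenocarcinoma (LUAD) organoids. The genes were taken by name: every gene whose symbol begins with Atp6v in the lists of translated open reading frames (ORFs), which gave 12 subunits of the vacuolar proton pump (V-ATPase), and 25 listed lysosomal enzymes, cofactors and membrane proteins. Of these 37 genes 34 had rows, out of 7266 genes that the ORF lists pair with transcripts in the count tables. Ctss, Hexa and Lipa had no row and were not analysed here. Ppt1 entered through 1 AT2 list on a single nonsense-mediated decay transcript and failed the filter on low counts, so 33 members were tested.

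The lysosome is the acidic compartment in which cells break down proteins, sugars and lipids. The V-ATPase pumps protons into it through a membrane sector (V0) driven by an ATP-hydrolysing sector (V1). Soluble hydrolases work in the lumen, and heavily glycosylated membrane proteins line it. In AT2 cells, a related acidic organelle, the lamellar body, stores surfactant.

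Ribosome footprints, RNA and ORF lists came from organoids of mouse strain C57BL/6, the same strain in every group. Footprints and RNA had 3 AT2 and 4 LUAD libraries each, and the ORF lists came from 2 AT2 and 3 LUAD libraries. Before harvest all groups spent 48 hours on plates washed with matrigel and had 5 minutes in 100 µM cycloheximide, which arrests elongating ribosomes. Footprints were isolated with RiboLace, a pull-down of active ribosomes. The RNA libraries carry the footprint extraction protocol in the labels, which leave their own preparation unstated. The ORF libraries of the tumour kind are titled KP and are LUAD by their source label, and no label states an allele, a driver or the number of tumours behind the footprint and RNA libraries. Separate cultures are stated for the ORF set alone, so the p-values below measure the spread between these libraries, which may be technical. In bulk organoids, fewer cells of a type and less RNA per cell cannot be told apart.

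Depth ran from 3.03 to 3.83 M estimated counts in AT2 footprints and from 4.8 to 14.25 M in LUAD footprints, and from 4.12 to 10.23 M in AT2 RNA and from 27.18 to 33.2 M in LUAD RNA. The tumour suppressor gene Trp53, read as a check of the labels, lay between 77.5 and 119 CPM in AT2 footprints and between 0 and 1.78 CPM in LUAD footprints. CPM is the usual depth-scaled count, here with the counts paired with genes as the library total and scaled by the trimmed mean of M-values (TMM). AT2 footprint library 1 stood apart: its 10 most abundant genes took 56.2% of the paired counts against 7.33% to 15.2% in the other footprint libraries, so member counts are also given without it. All 9 epithelial markers were tested, while 7 of 16 AT2 markers, 2 of 22 macrophage markers (Cd14 and Mrc1), 1 of 14 fibroblast markers (Bgn) and 0 of 8 club or ciliated markers were. The other markers had too few counts or no listed ORF and were not analysed here. Of the 7 AT2 markers 5 were called lower and 0 higher in LUAD footprints, and 5 lower and 1 higher in RNA. Of the 9 epithelial markers 4 were lower and 1 higher in footprints, and 5 lower and 2 higher in RNA. Beside these marker counts, 11.8% of all genes were called lower and 9.47% higher in footprints, and 18.0% and 19.0% in RNA. The summed AT2 markers ran from 1600 to 3090 CPM in AT2 footprints and from 502 to 577 CPM in LUAD footprints (RNA, 2040 to 3830 against 1230 to 1290), and the surfactant gene Sftpb had no LUAD footprint count. The 2 macrophage markers summed to 8.68 to 8.89 CPM in AT2 and to 77.6 to 101 CPM in LUAD footprints (RNA, 6.78 to 19.4 against 150 CPM or more), and Bgn stood at 2.65 to 3.56 and 41.5 to 104 footprint CPM, the direction opposite to most members. The part of these marker levels in the results below was not tested.

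Promoters of the members were searched for the E-box CACGTG. It is the core of the site bound by TFEB and its relatives, the factors known for switching on lysosomal genes. Windows from 250 bases before to 50 after each annotated start (RefSeq, GRCm38.p6) were found for 30 of the 37 genes. The motifs searched were CACGTG, TCACGTGA and the full palindrome with a further G before and C after it. Each reads the same on both strands, and each shorter one lies inside the longer. CACGTG was in 9 of 30 members (30%), against 8.09% of all 27025 genes with a window and 12.6% of the genes tested in RNA. TCACGTGA was in 5 members (16.7%), namely Ctsa, Ctsd, Atp6v0d1, Atp6v0e and Atp6v1a, against 1.12% of all genes and 2.66% of those tested. In Ctsa, as in Atp6v1a, the window with the motif lies at an annotated start inside the gene. The full palindrome was in 0 members and in 0.37% of all genes. No test was made on these shares, and a match is not a binding site. Whether the motif has a part in the changes below was not tested. The sequences below run from 140 bases before to 10 after the start, 5′ to 3′ on the gene's strand, with CACGTG in capitals. Lamp1 is shown for its 4 copies, Ctsd, Atp6v0d1 and Atp6v1a for the longer core, and Atp6v0b and Glb1 as called members with the shorter one.
Lamp1, chr8:13159021-13159170, plus strand: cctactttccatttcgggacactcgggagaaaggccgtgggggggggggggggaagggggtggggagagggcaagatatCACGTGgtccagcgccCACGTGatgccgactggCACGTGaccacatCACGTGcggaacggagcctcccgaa
Ctsd, chr7:142387818-142387967, minus strand: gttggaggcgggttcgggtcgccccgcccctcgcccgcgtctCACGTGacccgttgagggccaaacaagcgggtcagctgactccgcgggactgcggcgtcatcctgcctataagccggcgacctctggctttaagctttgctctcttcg
Atp6v0d1, chr8:105566055-105566204, minus strand: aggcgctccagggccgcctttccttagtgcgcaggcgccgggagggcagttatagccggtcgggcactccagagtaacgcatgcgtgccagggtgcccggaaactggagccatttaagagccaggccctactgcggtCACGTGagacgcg
Atp6v1a, chr16:44139250-44139399, minus strand, at an annotated start inside the gene: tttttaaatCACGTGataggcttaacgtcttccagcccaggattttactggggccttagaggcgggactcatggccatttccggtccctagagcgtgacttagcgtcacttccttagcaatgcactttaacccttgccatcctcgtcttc
Atp6v0b, chr4:117887320-117887469, minus strand: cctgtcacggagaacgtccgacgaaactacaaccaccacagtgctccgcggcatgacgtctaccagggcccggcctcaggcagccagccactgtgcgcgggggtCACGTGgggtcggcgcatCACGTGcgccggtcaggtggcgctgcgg
Glb1, chr9:114400938-114401087, plus strand: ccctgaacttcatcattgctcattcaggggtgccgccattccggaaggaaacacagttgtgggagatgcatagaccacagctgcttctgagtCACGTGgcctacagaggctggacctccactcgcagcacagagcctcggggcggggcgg

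The copies began 61, 45, 28 and 15 bases before the start in Lamp1, 36 and 18 before it in Atp6v0b, 48 before it in Glb1 and 3 before it in Atp6v0d1. In Ctsd 1 copy began 98 bases before the start, and another at 245 lies outside the printed stretch. Ctsl held 1 copy 236 bases upstream, and its footprints and RNA did not pass the tests described next.

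**Figure D1:**
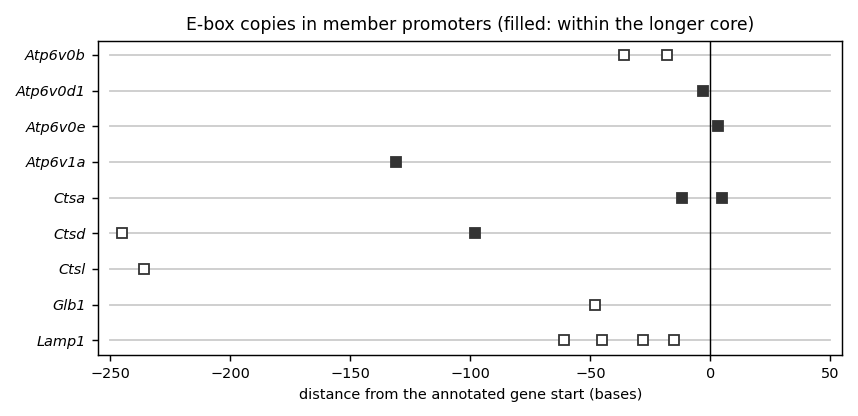
Positions of CACGTG in the promoters of the 9 members that hold it, as distance in bases from the annotated start (0, vertical line), with 1 horizontal line per gene from 250 bases before to 50 after. Filled squares are copies inside TCACGTGA and open squares are the other copies; Lamp1 shows 4 copies within 61 bases of its start.

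Footprints of 16 of 33 members were lower in LUAD and those of 0 were higher (edgeR, quasi-likelihood test at a Benjamini-Hochberg p under 0.05). Of all 6814 genes tested, 11.8% were called lower and 9.47% higher. The members called were the hydrolases Ctsa, Ctsc, Ctsd, Ctsz, Tpp1, Gusb, Glb1, Man2b1, Neu1 and Asah1, and the saposin precursor Psap. The others called were the cholesterol carrier Npc2, the membrane proteins Lamp2 and Scarb2, and the V0 subunits Atp6v0b and Atp6v0d1. The median log2 fold change was -0.66 over the members and -0.02 over all genes. In 21 members every LUAD library lay below every AT2 library, as it did in 17.3% of all genes. Without AT2 footprint library 1, 15 members were lower, all among the 16, and without LUAD library 3 or without LUAD library 4 there were 10. Scaled on all transcripts, the median of all genes moved to 0.146, 12 members were lower and 0 higher, and the split over all genes went from 645 higher and 803 lower to 866 and 612. The calls lost with that scaling were Tpp1, Asah1, Psap and Lamp2 (adjusted p 0.0559 to 0.108). On deposited TPM with limma, which carries no TMM scaling and puts the median of all genes at 0.606, 0 members passed and their median was -0.06.

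In RNA 23 of 33 members were lower in LUAD and 1, Atp6v1f, was higher, against 18.0% and 19.0% of 6942 genes (edgeR, same threshold). The median was -0.97 over the members and 0.04 over all genes. In 23 members all LUAD libraries lay below all AT2 libraries, compared with 21.1% of all genes. The 9 members not called in RNA were Ctsl, Tpp1, Cd63, Laptm4a, Grn, Atp6v1b2, Atp6v1c1, Atp6v1d and Atp6v1h. Without AT2 RNA library 2 there were 16 lower and 0 higher, and without AT2 RNA library 1 there were 17 and 0. Over all 6993 genes tested there, 791 were lower and 837 higher without library 2, and 816 and 861 without library 1. Scaling on all transcripts gave 16 lower and 1 higher member, with 1795 higher and 912 lower genes in all instead of 1322 and 1250 (median of all genes 0.201). The calls lost were Ctsa, Ctsb, Gusb, Man2b1, Atp6v0a1, Atp6v0e and Atp6v1e1 (adjusted p 0.0506 to 0.148). As a share of the counts paired with genes, the 22 lysosomal members with rows took 1.91%, 2.01% and 1.33% of the AT2 RNA libraries and 0.96%, 0.97%, 0.71% and 0.7% of the LUAD libraries. The 12 V-ATPase genes took 0.24% to 0.31% in AT2 and 0.19% to 0.21% in LUAD. In footprints, the lysosomal members took 0.45%, 0.79% and 0.73% of paired counts in AT2 and 0.66%, 0.66%, 0.51% and 0.5% in LUAD. The V-ATPase genes took 0.08%, 0.17% and 0.15% of footprint counts in AT2 and 0.15% to 0.16% in LUAD, ranges that overlapped. The low lysosomal share in AT2 library 1, where 1 gene (Mettl26) took 52.1% of the paired counts, became the highest summed level after TMM scaling (8354.4 CPM, against 7977.1 and 7259.2 in AT2 and 4442.5 to 5510.8 in LUAD).

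**Figure D2:**
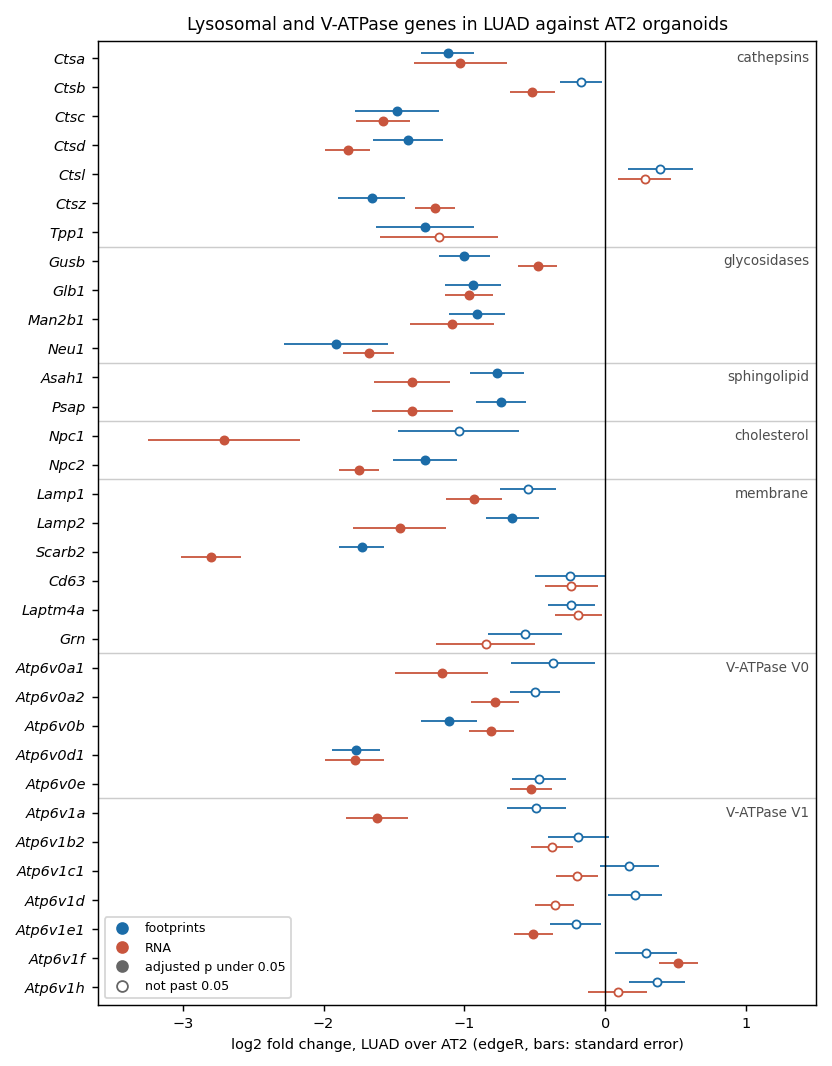
Log2 fold change of LUAD over AT2 (x axis; points, edgeR estimate; bars, standard error) for the 33 tested members (y axis, ordered by role), with footprints in blue and RNA in red, filled where the adjusted p was under 0.05. Most points lie left of 0, from -2.8 (Scarb2 RNA) to 0.52 (Atp6v1f RNA).

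Cathepsins are the proteases of the lysosome. Ctsd encodes cathepsin D, an aspartic protease (chromosome 7, 142375910 to 142387827, GRCm38.p6). Its RNA stood at 3889, 4180 and 3180 CPM in AT2 and at 1174, 1153, 952.8 and 932.4 CPM in LUAD. Its footprints stood at 873.4, 558.1 and 485.2 CPM in AT2 and at 257.2, 279.3, 231.7 and 195.9 CPM in LUAD. The groups did not overlap in either assay, and all LUAD libraries were low. The log2 fold change was -1.83 ± 0.16 in RNA (SE, n = 3 and 4; edgeR adjusted p = 0.000174) and -1.40 ± 0.25 in footprints (edgeR adjusted p = 0.00641), that is, 3.56-fold and 2.65-fold lower.

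Ctsz, which trims single residues from the carboxyl end of proteins, had 470.5, 836.3 and 811.5 footprint CPM in AT2 and 230.1, 187.7, 236.7 and 239.5 in LUAD. RNA of Ctsz was 901.3, 918.9 and 1030 CPM against 373.2, 390.2, 422.9 and 460.5 CPM. The AT2 footprint library 1 was the lowest of its group, and every LUAD value was below it. Ctsz was 3.16-fold lower in footprints (log2 fold change -1.66 ± 0.24, edgeR adjusted p = 0.00276) and 2.31-fold lower in RNA (-1.21 ± 0.14, edgeR adjusted p = 0.00056).

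Ctsc, the dipeptidyl peptidase that activates serine proteases of immune cells, stood at 107.6, 288.5 and 243.1 footprint CPM in AT2 and 82.19, 75.4, 72.32 and 77.37 in LUAD. Its RNA stood at 170.3, 157.4 and 244 CPM in AT2 and 60.72, 71.56, 60.56 and 62.16 CPM in LUAD. Both assays were low in all LUAD libraries, and AT2 footprint library 1 came close to them. The changes were -1.48 ± 0.30 (edgeR adjusted p = 0.0119) and -1.58 ± 0.19 (edgeR adjusted p = 0.000645). Ctsa, the protective protein that stabilises beta-galactosidase and neuraminidase, had 148.5, 118.6 and 104.4 footprint CPM in AT2 and 58.85, 63.95, 49.82 and 54.48 in LUAD, 2.18-fold lower (edgeR adjusted p = 0.00582). Its RNA groups overlapped, since AT2 library 3 at 126.5 CPM lay below LUAD libraries 1 and 2. The RNA call (-1.03 ± 0.33, edgeR adjusted p = 0.0386) was lost without AT2 RNA library 1 or 2, or LUAD RNA library 1, 3 or 4 (adjusted p 0.0501 to 0.159).

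The cysteine proteases Ctsb and Ctsl were not called in footprints. Ctsb footprints were 409.1, 440.3 and 410.3 CPM in AT2 and 386.6, 391, 356.3 and 355.2 CPM in LUAD. The groups did not overlap, but the difference of -0.17 ± 0.15 did not pass (edgeR adjusted p = 0.468). Its RNA was 758.8, 745.2 and 532.2 CPM against 471.9, 500.4, 451.4 and 470.2 CPM, a log2 fold change of -0.52 ± 0.16 (edgeR adjusted p = 0.0356) that missed 0.05 when AT2 RNA library 1 or 2, or any 1 LUAD RNA library, was left out (0.0581 to 0.133). Of the Ctsb footprint counts 53.3% lay on its protein-coding transcript. Ctsl footprints were 520.3, 734.6 and 746.1 CPM in AT2 and 1075, 949.3, 720.3 and 744.2 CPM in LUAD. Ctsl RNA was 936.2, 955 and 1139 CPM in AT2 and 1475, 1407, 1034 and 989.3 CPM in LUAD. The groups overlapped in both assays, with LUAD libraries 1 and 2 the highest, and the differences of 0.39 ± 0.23 and 0.28 ± 0.19 did not pass (edgeR adjusted p = 0.277 and 0.28). Tpp1, a tripeptidyl peptidase, had 38.95 to 84.5 footprint CPM in AT2 and 17.54 to 28.73 in LUAD (-1.28 ± 0.35, edgeR adjusted p = 0.0345), a call lost on leaving out any 1 library except AT2 library 3 (0.0525 to 0.0982). With protein-coding transcripts alone it did not pass (adjusted p = 0.395).

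**Figure D3:**
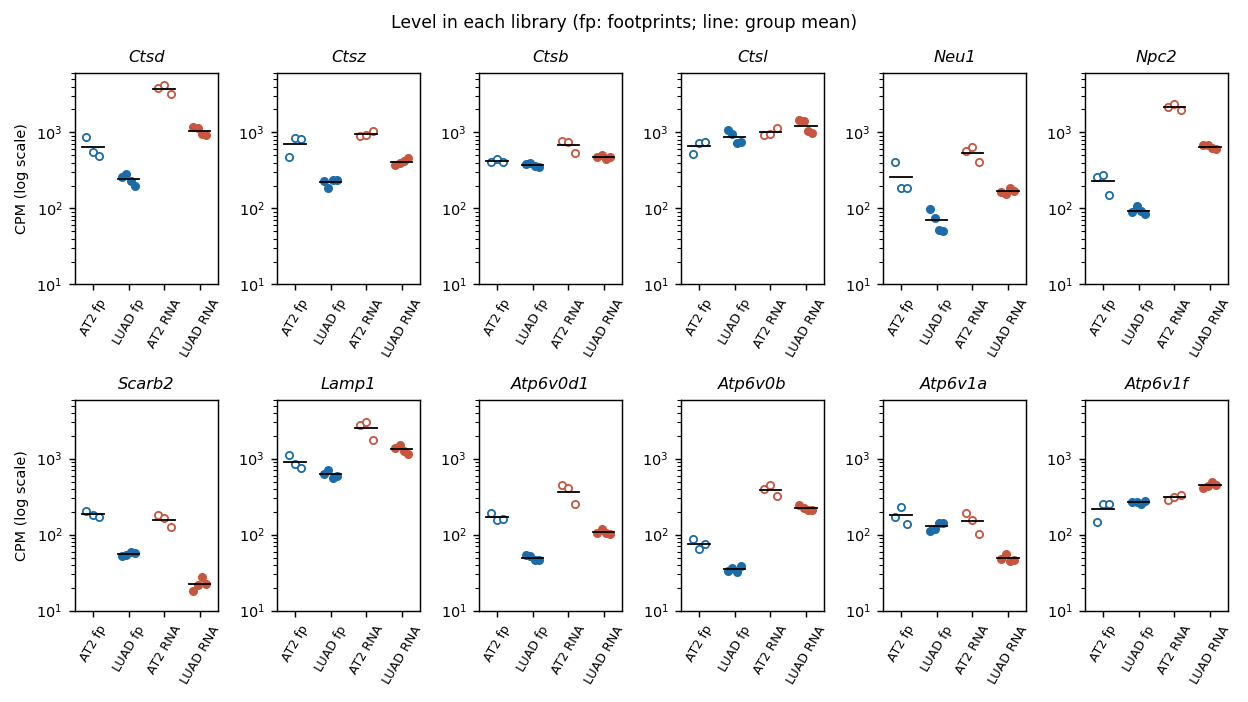
Level of 12 members in each library, in CPM on a log axis, with AT2 libraries as open and LUAD libraries as filled points, footprints (fp) in blue, RNA in red and group means as lines. Ctsd, Ctsz, Neu1, Npc2, Scarb2, Atp6v0d1 and Atp6v0b are low in all LUAD libraries in both assays, and Ctsl groups overlap.

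The 4 glycosidases with rows cut sugars from glycoproteins and glycolipids. All 4 were called lower in both assays, beside 11.8% of all genes in footprints and 18.0% in RNA. Not all of these calls held in the other runs given below. Neu1 encodes the sialidase neuraminidase 1 (chromosome 17, 34931253 to 34937297). Its RNA was 571.8, 641.4 and 408.8 CPM in AT2 and 166.5, 152.5, 186.4 and 170.2 CPM in LUAD, and its footprints were 410.9, 186 and 184.5 CPM against 99.18, 75.23, 51.6 and 51.11 CPM. No LUAD value reached the lowest AT2 value, and AT2 footprint library 1 was far above the others of its group. Neu1 was 3.75-fold lower in footprints (-1.91 ± 0.37, edgeR adjusted p = 0.00917) and 3.2-fold lower in RNA (-1.68 ± 0.18, edgeR adjusted p = 0.00039).

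Glb1, the lysosomal beta-galactosidase read in senescence stains, had 49.81, 59.11 and 65.8 footprint CPM in AT2 and 27.4, 31.97, 32.26 and 30.2 in LUAD. Glb1 RNA was 137.3, 122.5 and 94.26 CPM in AT2 and 62.37, 62.34, 55.77 and 61.54 CPM in LUAD. The groups stood apart in both (-0.94 ± 0.20 and -0.97 ± 0.17; edgeR adjusted p = 0.0146 and 0.00366), and the footprint call missed 0.05 without LUAD footprint library 3 or 4 (0.0507 and 0.0566). Man2b1, an alpha-mannosidase, fell from 133.4, 148.8 and 140.3 to 91.57, 82.07, 61.36 and 64.42 footprint CPM (edgeR adjusted p = 0.0134, and 0.0515 and 0.0536 without LUAD footprint library 3 or 4). Its RNA fell by 1.09 ± 0.30 on the log2 scale (edgeR adjusted p = 0.0244), a call lost without AT2 RNA library 1 or 2 or LUAD RNA library 3 or 4 (0.0574 to 0.0948). Gusb, beta-glucuronidase, had 122.7, 170.3 and 156.9 footprint CPM in AT2 against 78.13, 83.18, 73.11 and 66.3 in LUAD (edgeR adjusted p = 0.00711). Of its footprint counts 46.6% lay on protein-coding transcripts, and of its RNA counts 91.5%. With those transcripts alone neither Gusb call held (edgeR adjusted p = 0.262 in footprints and 0.351 in RNA). The Gusb RNA difference of -0.48 ± 0.14 (edgeR adjusted p = 0.0264) was also lost without AT2 RNA library 1 or 2 or LUAD RNA library 2, 3 or 4 (0.0521 to 0.0886).

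Sphingolipids are degraded with the help of Psap, the precursor of the saposins, and of Asah1, acid ceramidase. Psap footprints were 1170, 915.2 and 860.7 CPM in AT2 and 625.8, 625, 547.9 and 550.2 CPM in LUAD, and its RNA was 1616, 1671 and 722.2 CPM against 595.9, 566.5, 427.8 and 480.6 CPM. Asah1 footprints were 495.4, 345.2 and 321 CPM against 229.8, 221.3, 224.7 and 231.3 CPM, and its RNA 1111, 1147 and 506.2 CPM against 342.5, 377.5, 360.4 and 345.5 CPM. In both genes AT2 RNA library 3 was far below the other AT2 libraries and still above every LUAD library. The log2 fold change in RNA was -1.37 for each (SE 0.29 for Psap and 0.27 for Asah1; edgeR adjusted p = 0.00771 and 0.00562). In footprints it was -0.74 ± 0.18 for Psap and -0.77 ± 0.19 for Asah1 (edgeR adjusted p = 0.0245 and 0.0257). Those footprint calls were lost on leaving out any 1 LUAD footprint library (0.0561 to 0.0852), and for Psap also without AT2 footprint library 2 (0.0516). The Asah1 footprint call was also lost with protein-coding transcripts alone (0.0521).

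Npc1 and Npc2 pass cholesterol from the lumen to the membrane and out of the lysosome. Npc2 RNA was 2147, 2390 and 1985 CPM in AT2 and 685.4, 679.9, 629.8 and 598.3 CPM in LUAD, and its footprints were 260.6, 273.2 and 150.5 CPM against 89.29, 107, 93.53 and 84.49 CPM. Neither assay overlapped, and Npc2 was 3.35-fold lower in RNA (-1.75 ± 0.14, edgeR adjusted p = 0.000118) and 2.43-fold lower in footprints (-1.28 ± 0.23, edgeR adjusted p = 0.00737). With protein-coding transcripts alone, which held 51.6% of its footprint counts, the footprint difference did not pass (adjusted p = 0.132). Npc1 RNA was 168.7, 144.9 and 25.99 CPM in AT2 and 22.8, 17.79, 15.06 and 13.78 CPM in LUAD. AT2 library 3 thus came within a few CPM of the LUAD libraries, and the change of -2.71 ± 0.54 (edgeR adjusted p = 0.00599) was -0.88 among the libraries of set 2, the set that holds AT2 library 3 and is described at the end. On TPM with limma the Npc1 RNA difference did not pass (adjusted p = 0.0718). Npc1 footprints ran from 68.82 to 242.8 CPM in AT2 and from 49.62 to 74.64 CPM in LUAD, and did not pass (edgeR adjusted p = 0.127).

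Among the membrane proteins Scarb2 had the smallest adjusted p in footprints and in RNA. Scarb2 encodes LIMP-2, the receptor that carries beta-glucocerebrosidase to the lysosome (chromosome 5, 92441311 to 92505657). Its RNA stood at 180.3, 166.6 and 124.9 CPM in AT2 and at 18.38, 21.84, 27.54 and 22.58 CPM in LUAD, 6.97-fold lower (-2.80 ± 0.21, edgeR adjusted p = 0.000105). Its footprints stood at 205.5, 181.1 and 172.1 CPM in AT2 and at 52.51, 54.37, 59.49 and 57.95 CPM in LUAD, 3.31-fold lower (-1.73 ± 0.16, edgeR adjusted p = 0.000489). The libraries of each group lay close together, with no overlap between groups.

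Lamp1 and Lamp2 are the most abundant glycoproteins of the lysosomal membrane. Lamp1 (chromosome 8, 13159161 to 13175338) had 1120, 842.1 and 754.8 footprint CPM in AT2 and 620.7, 709.2, 559 and 589.6 in LUAD. Its RNA was 2759, 3042 and 1767 CPM in AT2 and 1390, 1494, 1280 and 1148 CPM in LUAD. All LUAD libraries were below all AT2 libraries in both, yet the footprint difference of -0.55 ± 0.20 did not pass (edgeR adjusted p = 0.0918) while the RNA difference of -0.93 ± 0.20 did (edgeR adjusted p = 0.00958). With DESeq2 the Lamp1 footprint difference passed (adjusted p = 0.0193), as it did by edgeR with the library set as a term (0.00428). Lamp2 fell by 1.46 ± 0.33 in RNA (edgeR adjusted p = 0.0105) and by 0.66 ± 0.19 in footprints (edgeR adjusted p = 0.041). The Lamp2 footprint call was lost without AT2 footprint library 2 or 3 or LUAD footprint library 1, 3 or 4 (0.0942 to 0.132). The tetraspanin Cd63 (-0.25 in footprints, -0.24 in RNA), the small membrane protein Laptm4a (-0.24 and -0.19) and the secreted and lysosomal growth factor precursor Grn (-0.57 and -0.85) passed neither test, with edgeR adjusted p from 0.0904 to 0.517. With replicate numbers as a block, Grn and Tpp1 RNA passed (edgeR adjusted p = 0.00673 and 0.0147). The numbers cannot be told apart from the library sets described at the end, so true pairs are not shown.

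The proton pump was read by sector. In V0, 2 of 5 members (40%) were lower in footprints and 5 of 5 (100%) in RNA, with medians of -0.50 and -0.81. Over all genes 11.8% were lower and 9.47% higher in footprints, and 18.0% and 19.0% in RNA. In V1, 0 of 7 were called in footprints, and in RNA 2 were lower (28.6%) and 1 higher (14.3%), with medians of 0.17 and -0.36. Of the 7 V1 subunits 3 were below 0 in footprints and 5 in RNA. The difference between the sectors was not tested.

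Atp6v0d1, the d subunit that couples the V0 ring to the V1 stalk (chromosome 8, 105524461 to 105566064), had 193, 156.3 and 160.7 footprint CPM in AT2 and 53.27, 52.49, 47.06 and 46.51 in LUAD. Its RNA was 444.1, 415.1 and 250.6 CPM in AT2 and 105.7, 118.9, 106.6 and 101.6 CPM in LUAD. The groups were far apart in both assays, 3.41-fold in footprints (-1.77 ± 0.17, edgeR adjusted p = 0.000561) and 3.42-fold in RNA (-1.78 ± 0.21, edgeR adjusted p = 0.000605). Atp6v0b, a proteolipid of the rotating ring, stood at 88.94, 65.73 and 74.87 footprint CPM in AT2 and 32.98, 36.42, 32.75 and 39.1 in LUAD. Atp6v0b RNA was 401.5, 448.6 and 320 CPM in AT2 and 245.9, 221.6, 211 and 214.4 CPM in LUAD. All LUAD values were low, with changes of -1.11 ± 0.20 (edgeR adjusted p = 0.00692) and -0.81 ± 0.16 (edgeR adjusted p = 0.00555).

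Atp6v0a2, an isoform of the large a subunit, had 74.7, 93.63 and 77.58 RNA CPM in AT2 and 41.39, 52.04, 49.37 and 48.67 in LUAD (-0.78 ± 0.17, edgeR adjusted p = 0.00889). Its RNA call did not hold on the protein-coding transcript alone (edgeR adjusted p = 0.25), although that transcript carried 93.6% of its RNA counts. Of its footprint counts that transcript carried 17.5%. Atp6v0a1, the other a isoform among the members, had 182.8, 153 and 58.57 RNA CPM in AT2 and 55.16 to 61.96 in LUAD. Its AT2 library 3 thus lay inside the LUAD range. Its call (-1.16 ± 0.33, edgeR adjusted p = 0.0265) was lost without AT2 RNA library 1 or 2 or LUAD RNA library 2, 3 or 4 (0.0548 to 0.111), and with the replicate block (0.0753). Atp6v0e was lower by a smaller amount in RNA (-0.53 ± 0.15, edgeR adjusted p = 0.0228), and missed 0.05 without AT2 RNA library 2 or LUAD RNA library 1, 2 or 4 (0.0574 to 0.0609).

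In V1, Atp6v1a encodes the A subunit that carries the catalytic sites (chromosome 16, 44085402 to 44139702). Its RNA was 194, 155.2 and 102.4 CPM in AT2 and 48.2, 56.26, 44.8 and 46.97 CPM in LUAD, 3.08-fold lower with no overlap (-1.62 ± 0.22, edgeR adjusted p = 0.00122). Its footprints were 169.9, 232.3 and 139.9 CPM in AT2 and 112.6, 118.2, 140.4 and 142.5 CPM in LUAD, which overlapped (-0.49 ± 0.21, edgeR adjusted p = 0.142). Atp6v1f, a small stalk subunit, was the member that rose, from 285.2, 314.3 and 333.6 to 414.8, 430.8, 487.4 and 446 RNA CPM (0.52 ± 0.14, edgeR adjusted p = 0.0201). That call was lost without AT2 RNA library 1 or 2 or LUAD RNA library 3 or 4 (0.0503 to 0.0855), and the Atp6v1f footprints overlapped (0.29 ± 0.22, edgeR adjusted p = 0.403). Atp6v1e1 RNA was lower by 1.42-fold (edgeR adjusted p = 0.0221), a call lost without AT2 RNA library 1 or 2 or LUAD RNA library 1 (0.0516 to 0.0934). The remaining V1 subunits Atp6v1b2, Atp6v1c1, Atp6v1d and Atp6v1h, which form the catalytic head, the stalks and the regulatory cap, ran from -0.38 to 0.37 over both assays, with edgeR adjusted p from 0.0757 to 0.76.

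Levels of different genes were compared on the TPM scale, which divides by transcript length. In AT2 RNA the highest member was Ctsd at 1520, 1630 and 943 TPM, followed by Lamp1 at 1030, 1130 and 498 TPM, whose range overlapped that of Ctsd. Ctsz (468 to 548 TPM), Npc2 (370 to 584 TPM), Atp6v0e (488 to 550 TPM) and Psap (171 to 520 TPM) came next, and their ranges overlapped. In LUAD RNA the order differed. Atp6v1f had 490 to 565 TPM, Ctsl 331 to 595 TPM, Lamp1 336 to 520 TPM and Ctsd 280 to 432 TPM, and these neighbours overlapped too, apart from Atp6v1f against Ctsd. At the low end, Scarb2 had 16.1 to 30.8 TPM in AT2 and 2.93 to 3.51 TPM in LUAD, and Npc1 3 to 36.3 TPM and 2.66 to 5.11 TPM.

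Set side by side, 15 members were called lower in both assays, 1 (Tpp1) in footprints alone and 9 in RNA alone (Atp6v1f as higher), and 8 in neither. Lower in both were thus 45.5% of the members and 8.73% of the 6710 genes tested in both. The sign was the same in both assays for 31 of the 33 members (93.9%) and for 76.2% of all genes. Across members the Pearson correlation of the changes was 0.79 (Spearman 0.83), and across all 6710 genes tested in both 0.75 (0.71). Genes are not independent replicates, and the points share libraries and depth. In the test of footprints per RNA (edgeR interaction of tissue and assay), 0 of 33 members passed, against 0.720% of 7083 genes, and 5 had an unadjusted p under 0.05. The median difference was 0.35 over the members and 0.01 over all genes, and 26 of the 33 (78.8%) were above 0, beside 50.6% of all genes. A value above 0 means a higher ratio of footprints to RNA in LUAD. Library set 2, described at the end, holds 1 AT2 RNA library, so effect sizes alone are given for it. Within it the median of the members was -0.02 and that of all genes -0.12, with Ctsz at -0.57 and Neu1 at -0.65. Scarb2 (1.15 ± 0.25, edgeR adjusted p = 0.0528), Atp6v1a (1.21 ± 0.32, edgeR adjusted p = 0.107) and Atp6v1d (0.64 ± 0.23, edgeR adjusted p = 0.202) came closest. DESeq2 passed these 3 (adjusted p 0.000749, 0.0156 and 0.0484). When AT2 RNA library 3 was left out, edgeR passed 5 members, Asah1, Psap, Npc1, Scarb2 and Atp6v1a (adjusted p 0.0173 to 0.0475). Without AT2 footprint library 1 it passed Scarb2 (edgeR adjusted p = 0.0266). Over all genes these runs called 121 higher and 125 lower of 7148, and 207 and 216 of 7142. For Lamp1 the difference was 0.46 ± 0.29 (edgeR adjusted p = 0.527). With that SE, the lack of a call does not show that its footprint and RNA changes were alike. On simulated counts 4% of 2-fold differences were recovered, a share over genes of mixed abundance and not for Lamp1 itself.

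**Figure D4:**
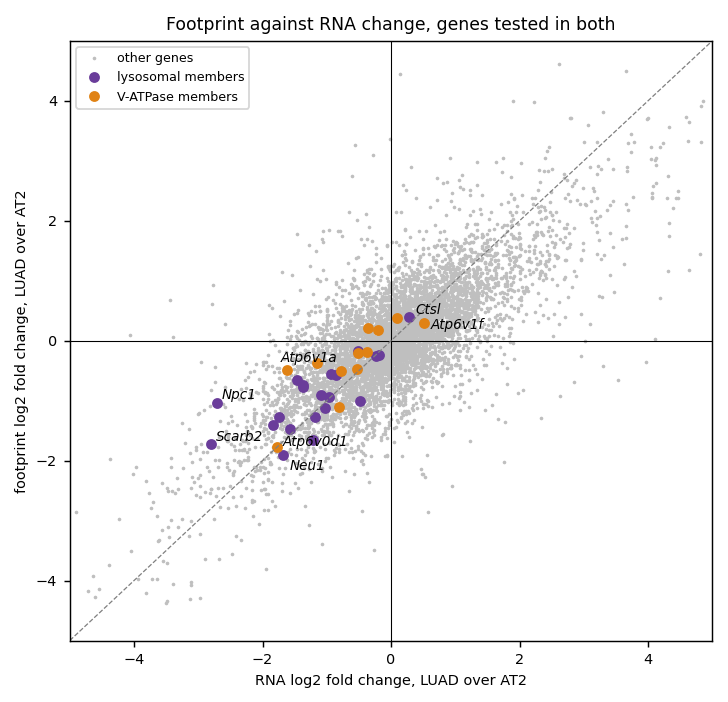
Footprint log2 fold change (y axis) against RNA log2 fold change (x axis), LUAD over AT2, for 6539 of 6710 genes tested in both (171 lie beyond the axes), with lysosomal members in purple, V-ATPase members in orange and other genes in grey. Most members lie in the lower left, and Scarb2, Npc1 and Atp6v1a lie above the dashed line of equal change.

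The ORF lists record where the authors found footprints in the reading frame. An annotated ORF of 2 and 13 of the 34 members was listed in the AT2 libraries and of 28, 18 and 15 in the LUAD libraries. Over all listed genes the shares were 12.3% and 24.5% in AT2 and 63.5%, 43.2% and 28.4% in LUAD, and the lists rest on 51293 and 127138 in-frame P-sites in AT2 and 2171017, 366121 and 275240 in LUAD. The members' shares of 5.88% and 38.2% against 82.4%, 52.9% and 44.1% gave p = 0.2 (exact two-sided permutation test, n = 2 and 3), the smallest this design can give. Depth and tissue cannot be told apart here. Because most genes entered the gene tables through LUAD lists (4187 of 7379 through those alone), the tables hold more genes found translated in LUAD. Among the members 19 had an annotated ORF in LUAD lists alone and 0 in AT2 lists alone.

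Glb1 was the only member with an annotated ORF in all 5 lists. Ctsa, Ctsd and Ctsl had one in 1 AT2 and 3 LUAD lists, and Psap, Lamp1 and Grn in 3 LUAD lists. Ctsd, read over 410 codons, had 270 of 574 P-sites in frame in AT2 library 2 (47%, exact 95% interval 42.9% to 51.2%) and 925 of 1808 in LUAD library 1 (51.2%, 48.8% to 53.5%). Lamp1, over 406 codons, had 732 of 1578 in frame in LUAD library 1 (46.4%, 43.9% to 48.9%). These intervals cover counting error only. Other ORFs were listed in 27 members. Most lay on retained-intron transcripts, such as a stretch of 162 codons in Ctsd with 151 of 279 P-sites in frame in AT2 library 2 and 470 of 905 in LUAD library 1, and they can share reads with the main coding sequence. Atp6v0b had an upstream ORF of 33 codons in LUAD library 1 (13 of 17 P-sites in frame), and Tpp1 one of 32 codons overlapping its start in LUAD library 2 (7 of 8).

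The neighbourhood of the members was read from 8 further lists of lysosome and autophagy genes. The shares to set beside each list are those of all genes. These were 11.8% lower and 9.47% higher in footprints, and 18.0% lower and 19.0% higher in RNA. Of 46 other lysosomal hydrolases 30 were tested in footprints and 31 in RNA. In footprints 9 were lower (30%) and 0 higher by edgeR, with a median of -0.62. In RNA 14 were lower (45.2%) and 4 higher (12.9%), with a median of -0.92. Fuca1, which removes fucose, fell from 81.57 ± 9.925 to 19.44 ± 2.364 footprint CPM (SD, n = 3 and 4; edgeR adjusted p = 0.000629), and the hyaluronidase Hyal1 from 50.8 ± 40.15 to 3.531 ± 1.873. In the other direction Acp5, the tartrate-resistant phosphatase of osteoclasts and macrophages, rose from 11.48 ± 5.327 to 63.38 ± 11.16 RNA CPM, and Ctsw, a cathepsin of cytotoxic lymphocytes, from 5.005 ± 3.673 to 42.69 ± 33.66.

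Other lysosomal membrane proteins split by edgeR. In footprints 6 of 26 were lower (23.1%) and 4 higher (15.4%), with a median of -0.58. In RNA 9 of 28 were lower (32.1%) and 4 higher (14.3%), with a median of -0.77. The tetraspanin Cd81 fell from 684.3 ± 116.9 to 159 ± 12.27 footprint CPM, and Ostm1, a partner of the lysosomal chloride exchanger, from 36.75 ± 10.05 to 10.09 ± 1.811. The endosomal protein Litaf rose from 247.2 ± 12.31 to 739.8 ± 58.89 RNA CPM, and the tetraspanin Cd82 from 49.1 ± 2.539 to 121.3 ± 11.92 footprint CPM. Accessory and assembly factors of the V-ATPase were lower in 2 of 10 in footprints (20%) and 4 of 9 in RNA (44.4%), with none higher by edgeR. Tcirg1, the a3 subunit known for acid secretion by osteoclasts, fell from 116.4 ± 30.63 to 26.71 ± 9.384 footprint CPM. It is a further a isoform of V0, which the Atp6v symbol rule left out of the members and of the V0 counts above.

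Proteins of the lamellar body and the surfactant proteases were lower in 3 of 9 in footprints (33.3%) and 4 of 9 in RNA (44.4%). By edgeR 0 were higher in either. Ctsh, the cathepsin that processes surfactant protein precursors, fell from 5947 ± 375.3 to 450.2 ± 15.32 RNA CPM (log2 fold change -3.72 ± 0.13, edgeR adjusted p = 4.95e-06) and from 385.5 ± 233.9 to 24.5 ± 3.725 footprint CPM. The lipid transporter Abca3, also an AT2 marker, fell from 190.5 ± 70.42 to 36.15 ± 3.596 RNA CPM.

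Sorting to the lysosome runs on a mannose 6-phosphate tag and its receptors. Of these genes 7 of 16 were lower in footprints (43.8%) and 6 of 14 in RNA (42.9%), and 0 were higher by edgeR (medians -0.80 in both). The sorting receptor Sort1 fell from 89.28 ± 35.73 to 16.55 ± 3.432 RNA CPM, the mannose 6-phosphate receptor Igf2r from 255.9 ± 123.9 to 56.62 ± 13.6, and Gnptab, of the tagging enzyme, from 116.1 ± 7.424 to 39.37 ± 3.562.

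Among regulators at the lysosome, 2 of 15 were lower in footprints (13.3%, beside 11.8% of all genes), and in RNA 4 of 15 were lower (26.7%, beside 18.0%) and 1 higher (edgeR). Tfeb, Mitf and Tfec had no row, and Tfe3 did not pass (-0.49 in footprints, edgeR adjusted p = 0.358, and 0.05 in RNA, 0.974). Mtor, the kinase, fell from 115.7 ± 9.228 to 50.12 ± 6.768 footprint CPM, and its activator Rheb rose from 156.4 ± 16.32 to 307.8 ± 23.99 RNA CPM. Autophagy genes were lower in 4 of 31 in each assay and higher in 1 in footprints and 0 in RNA (edgeR; medians 0.06 and -0.30). The lower share of 12.9% was near that of all genes in footprints and below it in RNA, with Atg7 falling from 127.2 ± 34.94 to 27.35 ± 3.582 RNA CPM. Endosome tethering and retromer genes were lower in 1 of 33 and higher in 1 in footprints, and lower in 2 of 32 and higher in 3 in RNA (medians 0.17 and 0.23), shares below those of all genes in each direction, with Vps33b rising from 9.309 ± 0.7438 to 37.85 ± 4.737 RNA CPM. These counts and medians are descriptions, and no difference between lists was tested. Over the 8 lists together 40 of 170 genes were called in footprints (23.5%; 6 higher, 34 lower) and 59 of 169 in RNA (34.9%; 12 higher, 47 lower), beside 21.3% and 37% of all genes called in either direction. The called share was therefore near that of all genes in both assays, while the lower calls made up 20% and 27.8% of the list genes, beside 11.8% and 18.0% of all genes. The total of 40 was 26, 25 and 25 without LUAD footprint library 2, 3 or 4, and that of 59 was 36 and 33 without AT2 RNA library 1 or 2. Over all genes the lower calls then fell to 532, 481 and 491 in footprints and to 816 and 791 in RNA. Higher calls fell to 372, 360 and 365 in footprints and to 861 and 837 in RNA.

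**Figure D5:**
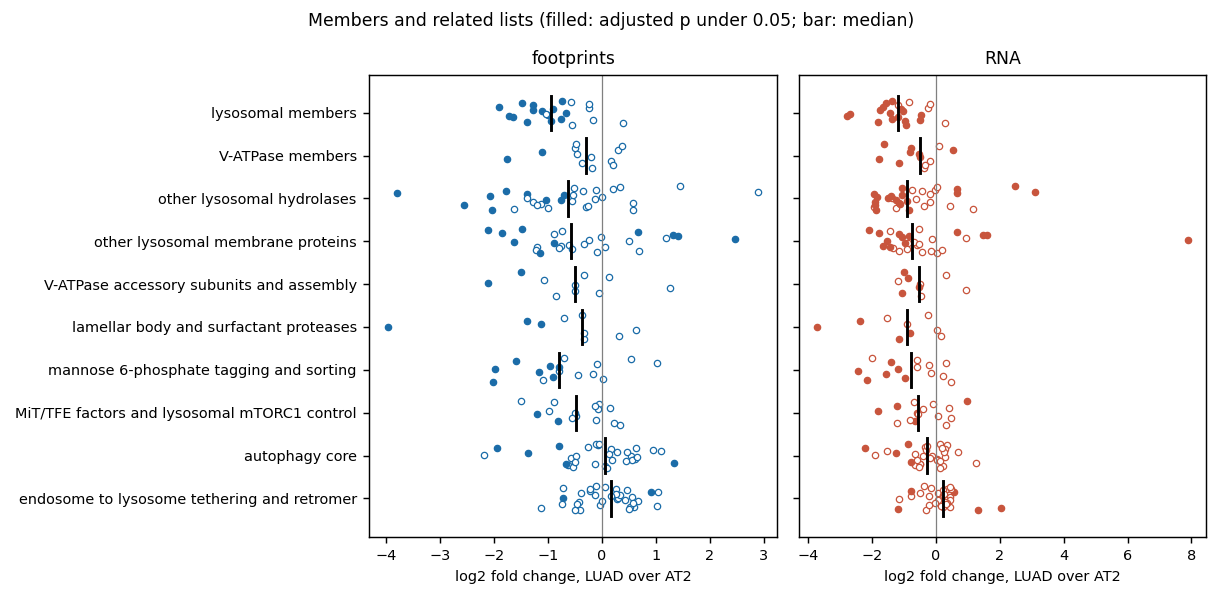
Log2 fold change of LUAD over AT2 (x axis) for members and genes of 8 related lists (rows) in footprints (left) and RNA (right), 1 point per gene, filled where the edgeR adjusted p was under 0.05, with medians as bars. Medians run from -0.94 (lysosomal members) to 0.17 in footprints and from -1.18 to 0.23 in RNA; the rightmost RNA point, Spns1, had 0 AT2 counts and its place depends on the fit.

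The libraries fell into 2 sets that deviated together from their group means. Set 1 held AT2 footprint library 1 with LUAD footprint libraries 1 and 2, and AT2 RNA libraries 1 and 2 with LUAD RNA libraries 1 and 2, and set 2 held the others. The labels do not say what the sets are. With the set as a term in edgeR, 21 members were lower and 1 higher in footprints, adding Lamp1, Npc1, Grn, Atp6v0a2 and Atp6v0e as lower and Atp6v1h as higher, while the genes called in all rose to 1412 higher and 1458 lower. Within set 2 alone 21 were lower and 0 higher, while 1395 of all 6842 genes were called higher and 1460 lower. Set 1 holds 1 AT2 footprint library and set 2 holds 1 AT2 RNA library. Effect sizes alone are therefore given for set 1 footprints, set 2 RNA and footprints per RNA within either set. In set 1 footprints Ctsl (0.96) and Atp6v1f (0.88) had the highest log2 ratios. In footprints 26 of 33 members were lower in LUAD within set 1 (median log2 ratio of mean CPM -0.62) and 28 within set 2 (-0.69). In RNA these were 31 (-1.03) and 30 (-0.61). Scarb2 RNA was -3.11 and -2.32, Ctsd RNA -1.79 and -1.75, and Atp6v0d1 footprints -1.87 and -1.76. The largest gaps were Npc1 RNA at -2.95 and -0.85 and Atp6v0a1 RNA at -1.48 and -0.01. Ctsc footprints were -0.45 in set 1 and -1.83 in set 2.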

How the data were processed

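Each footprint or RNA library was deposited as transcript-level estimated counts and TPM, from kallisto per the submitters' processing notes, with no version or transcript release stated there. The ORF lists hold P-site counts by frame, RPKM and the authors' p-values, on mm10 per the submitters' processing notes. The deposited RPKM values and p-values were not used in a test.

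The ORF lists paired 22871 transcripts with genes, 22509 of them (98.4%) in the tables of 118489 transcripts, and they carried 65% to 70% of the counts. Deposited estimated counts were summed to genes, rounded, and fitted with edgeR 4.0.16 (TMM, filterByExpr, robust quasi-likelihood test) in R 4.3.3, each assay alone and footprints per RNA as an interaction over 14 libraries. Adjustment ran over all genes tested. Alternatives were DESeq2 1.42.0, deposited TPM as log2(TPM + 1) with limma 3.58.1, no filter, scaling on all transcripts, protein-coding transcripts alone, a replicate block, each library left out and, chosen after seeing the data, library sets. Members and lists were chosen with earlier results of these data known.

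Values in every library are given for up to 14 members per comparison with the smallest adjusted p and a mean of at least 50 counts in the higher group, and for Lamp1, Ctsb, Ctsd, Ctsl, Atp6v1a and Atp6v0d1. Other lists name up to 3 genes per direction by size of change, and of these part is described. The regulators without a row and Tfe3 were added after their values were seen. On simulated counts the test recovered 8% of 2-fold and 66% of 4-fold changes in footprints (6751 genes). It recovered 22% and 74% in RNA (6902 genes) and 4% and 50% in footprints per RNA (7039 genes). Unchanged genes called numbered 3, 2 and 2. Few genes were changed in the simulation, whereas 21.3% of genes in footprints and 37% in RNA were called in the data. The adjustment was thus stricter in the simulation, and these shares may understate the recovery in the data. The main RNA fit was unpaired. Same-numbered AT2 and LUAD RNA libraries deviated together (correlations 0.19, 0.15 and 0.24). Only in the replicate block were RNA numbers treated as pairs, and the ground for this lay in the data alone. Differently numbered RNA libraries of 1 set correlated as highly (0.16, 0.18 and 0.24), so numbers and library sets cannot be told apart. Every replicate pair differed by more than sampling noise (lowest mean chi-square over genes 5.42). P-site shares carry exact binomial intervals. RefSeq coordinates and promoters are GRCm38.p6, which is mm10.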

Additional observations from a re-analysis of the deposited data

Results flagged for a closer look

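Of 66 groups of 4 LUAD libraries examined (33 members, footprints and RNA), 2 held 1 library far from the other 3, where chance flags about 1 group in 20. Ctsc RNA was 71.6 CPM in LUAD library 2 and 60.6 to 62.2 CPM in the others. Glb1 RNA was 55.8 CPM in LUAD library 3 and 61.5 to 62.4 CPM in the others. Both stayed below every AT2 library.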

How the results depend on the processing

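No called member changed sign under any alternative run. Over 528 values of members per assay, 57 lost and 20 gained a call in footprints, 53 and 25 in RNA, and in footprints per RNA 0 of 726 lost and 22 gained one. Members called in footprints numbered 16, and 10 with the replicate block, 0 on TPM with limma and 10 to 15 with 1 library left out. In RNA they numbered 24, and 16 to 27 with 1 library left out. In footprints per RNA they numbered 0, and 3 with DESeq2, 2 with the set as a term, and 0 to 5 with 1 library left out. With the set as a term 272 of all genes were called higher and 246 lower in footprints per RNA. For the other lists, the 40 genes called in footprints became 13 on TPM, 26 with the replicate block, 92 and 70 within sets 1 and 2, 75 with the set as a term and 25 to 48 with 1 library left out. The 59 called in RNA became 105 within set 1, 91 with the set as a term and 33 to 88 with 1 library left out. Over all genes, RNA calls rose to 2085 higher and 1965 lower within set 1, and to 1980 and 1752 with the set as a term. The 0 in footprints per RNA became 5 with DESeq2, 19 and 7 within sets 1 and 2, 9 with the set as a term, 1 with protein-coding transcripts alone, 1 with the replicate block and 0 to 7 with 1 library left out. The sets were drawn from these libraries, so added calls are no independent support, and the cause of the other changes was not tested. The totals over 528 and 726 values include fits within 1 set that leave 1 AT2 library in an assay. The replicate block moved all genes called in footprints from 645 higher and 803 lower to 432 and 502, and DESeq2 called 1011 and 1057. In footprints the numbers are only shared: same-numbered libraries correlated at 0.37, -0.30 and 0.30, and AT2 library 1 correlated best with LUAD library 2 (0.46). In RNA the block ended the Atp6v0a1 call, added Tpp1 and Grn, and changed no other member call. Over all genes footprints per RNA called 51, and 373 with DESeq2. Members with any listed ORF numbered 9 and 20 in AT2, and 2 and 13 with annotated ORFs only. The promoter share was 0% for the full palindrome, 16.7% for TCACGTGA and 30% for CACGTG. AT2 footprints held 3.03 to 3.83 M counts, and 8% of simulated 2-fold changes were recovered in a simulation that changed few genes. The part of depth in this was not tested.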
